A study of Mus musculus with 16 samples.

Results

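A group of 9 poly(ADP-ribose) polymerase (PARP) genes and the ubiquitin ligase gene Dtx3l were followed in primary mouse astrocytes before and after stimulation with lipopolysaccharide (LPS) and interferon gamma (IFNγ). The members were chosen by name and with earlier results of these data known. They were Parp1, Parp2, Parp3, Parp8, Parp9, Parp10, Parp11, Parp12, Parp14 and Dtx3l, and all 10 were found among the 16707 genes of the normalised expression table. Parp1 and Parp2 served as the reference against which the other 8 were set.

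PARP enzymes transfer ADP-ribose from NAD to proteins or nucleic acids. Parp1 and Parp2 build chains of ADP-ribose at DNA breaks, whereas most other family members attach single units or, as described for Parp9, have little activity on their own. Several of the latter are known interferon-stimulated genes with roles in antiviral defence and in the signalling of macrophages and other innate immune cells, and DTX3L forms a stable complex with PARP9.

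Per the labels, astrocytes were isolated from the brains of P6 pups by ACSA2 selection, grown in serum-free medium for about 10 days and studied by poly-A RNA sequencing of 16 libraries. There were 4 WT (C57BL/6J) litters and 4 Nlrx1-/- litters, and each litter gave 1 culture kept for 24 h with vehicle (H2O) and 1 exposed for 24 h to 500 ng/mL LPS with 10 ng/mL IFNγ. The pups' age and the vehicle are given here as in the labels, and the text of the study names younger pups in one place and PBS as the vehicle in another. NLRX1 is a mitochondrial member of the NOD-like receptor family, and the Nlrx1-/- pups lacked it in all cells and not in astrocytes alone. Because LPS and IFNγ were given together, the part of either agent in a response cannot be told apart.

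The libraries held 27259420 to 43752903 assigned read pairs. Nlrx1 itself was at 4.08 to 4.44 log2 CPM (read counts scaled to the library size) in the 8 WT libraries and at 1.09 to 2.96 in the 8 Nlrx1-/- libraries, so the genotype labels separated without overlap. All 10 astrocyte markers examined were in the expression table, and their summed TPM (transcript level scaled for length and library size) was 4227 to 6867 in WT vehicle and 3428 to 5044 under LPS+IFNγ, and 2980 to 4999 and 2692 to 3873 in Nlrx1-/- cultures, with overlap between treatments. Of 10 microglia and macrophage markers, 8 were not in the table and reached at most 0.87 TPM in any library, and the summed TPM of the list was 45.4 to 62.9 over the vehicle libraries and 27.8 to 44.5 over the LPS+IFNγ libraries. The 8 oligodendrocyte lineage markers were all in the table, and their summed TPM was lower under LPS+IFNγ, at 1470 to 1793 in WT against 1965 to 2408 in WT vehicle, and at 1192 to 1724 against 2138 to 2648 in Nlrx1-/- cultures. Neuron markers were higher without overlap in Nlrx1-/- cultures (370 to 428 against 316 to 363) and overlapped in WT (327 to 416 against 337 to 366), and meningeal fibroblast markers were lower without overlap in WT (4.15 to 7.14 against 8.39 to 10.5) and overlapped in Nlrx1-/- (3.88 to 15.4 against 5.48 to 23.3). The part of these shifts in the results was not tested. In these bulk cultures a change in the number of cells of a type and a change in RNA per cell cannot be told apart.

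Stimulation raised 8 of the 8 members other than Parp1 and Parp2 in WT astrocytes, where 23.7% of the 16066 genes tested rose, and 8 of 8 in Nlrx1-/- astrocytes, where 25.3% rose (edgeR quasi-likelihood test, Benjamini-Hochberg adjusted p below 0.05 over all genes tested). The median log2 response of the 8 was 3.53 in WT and 3.79 in Nlrx1-/- cultures, beside medians of -0.02 and -0.03 over all genes tested. As the list was chosen with earlier results of these data known, the comparison with all genes is a description and no independent test. Parp1 and Parp2 passed the test in neither genotype. The same 8 genes had every LPS+IFNγ library above every vehicle library, which held for 20.2% of all genes of the table in WT and 17.6% in Nlrx1-/- astrocytes. The plot of levels by library shows 2 separated bands for each of these genes and a single band for Parp1 and Parp2.

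**Figure D1:**
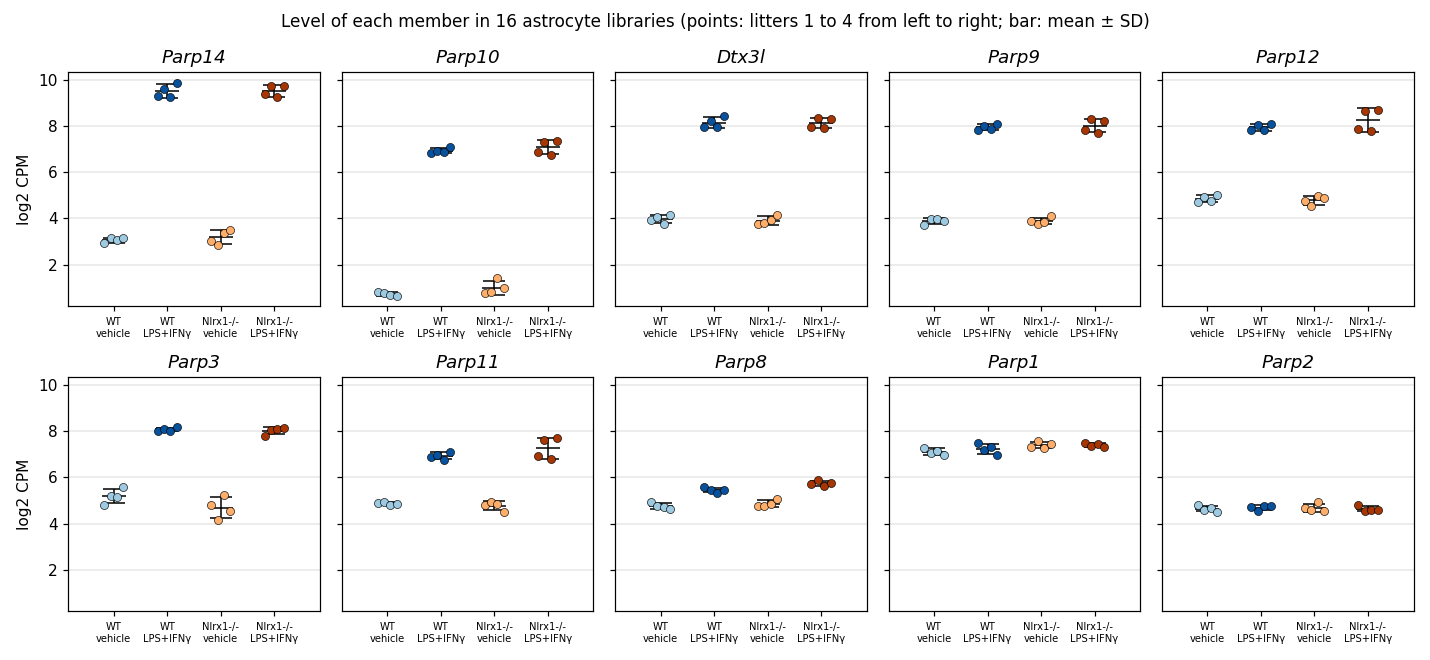
Level of each member in the 16 libraries, as deposited log2 CPM, with 4 litters per group and bars for mean ± SD. Parp14 moves from near 3 to above 9 log2 CPM, whereas Parp1 and Parp2 stay level, and Parp10 is the only member whose vehicle libraries lie below 2.

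Parp1, the main DNA break-sensing PARP, lies at chr1:180396443-180431307 (GRCm39, plus strand). In WT vehicle cultures it was at 7.28, 7.03, 7.15 and 6.96 log2 CPM in litters 1 to 4, and under LPS+IFNγ at 7.48, 7.19, 7.33 and 6.95. In Nlrx1-/- cultures it was at 7.33, 7.58, 7.25 and 7.43 in vehicle and at 7.47, 7.34, 7.44 and 7.33 under LPS+IFNγ. The treatment groups overlapped in both genotypes. The fitted log2 response was 0.12 ± 0.072 (SE) in WT (edgeR adjusted p = 0.195) and -0.017 ± 0.072 in Nlrx1-/- (edgeR adjusted p = 0.859). Here and below, the SE of edgeR values were worked back from the test statistic and are approximate.

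Parp2, its close relative in the repair of single-strand breaks, lies at chr14:51044948-51058759 (plus strand). Its 16 libraries spanned 4.51 to 4.93 log2 CPM, and the 4 groups had means between 4.64 and 4.69. The fitted log2 response was 0.063 ± 0.094 in WT (edgeR adjusted p = 0.617) and -0.016 ± 0.094 in Nlrx1-/- astrocytes (edgeR adjusted p = 0.904). The mean of the Parp1 and Parp2 responses, used as the reference, lay between 0.053 and 0.13 in the WT litters and between -0.13 and 0.13 in the Nlrx1-/- litters. As a check on the pairing of transcripts with genes, CPM from the summed transcripts was divided by the deposited CPM and set to 100% at the median gene of each library. This ratio was 83.3% to 91.6% for Parp2, 84% to 98.2% for Parp8, 87.4% to 106% for Parp9 and 95.7% to 103% for the other members. For Parp9 it was 100% to 104% in WT vehicle and 90.9% to 95.1% under LPS+IFNγ. In Nlrx1-/- cultures the Parp9 ratio was 87.4% to 106% and 91.6% to 95.1%. The deposited CPM came from length-scaled counts, so this ratio can also move with the mean transcript length of a gene and is not a share of reads. Values of Parp9 from transcripts may miss part of its reads under LPS+IFNγ, which was not tested.

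Parp9, Dtx3l and Parp14 sit together within 139750 bases of chromosome 16. Dtx3l (chr16:35746881-35759521, minus strand) and Parp9 (chr16:35758840-35792980, plus strand) are transcribed away from each other, and their annotated 5′ ends overlap by 682 bases. Parp14 (chr16:35653231-35692003, minus strand) lies 54878 bases from Dtx3l, counted from the 5′ end of Parp14 to the 3′ end of Dtx3l. The libraries did not keep the strand, so reads in the shared stretch cannot be assigned to Parp9 or Dtx3l with certainty.

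Parp9 encodes a macrodomain protein with little catalytic activity of its own. It was at 3.70, 3.95, 3.95 and 3.90 log2 CPM in the WT vehicle libraries and at 7.81, 7.99, 7.85 and 8.09 under LPS+IFNγ, a fitted log2 response of 3.98 ± 0.093 (edgeR adjusted p = 1.79e-10). In Nlrx1-/- cultures it moved from 3.87, 3.74, 3.85 and 4.08 to 7.82, 8.30, 7.70 and 8.20, a response of 4.12 ± 0.093 (edgeR adjusted p = 1.42e-10). The groups were far apart in both genotypes, and the LPS+IFNγ levels of the genotypes overlapped.

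Dtx3l, which encodes the E3 ubiquitin ligase partner of PARP9, was at 3.93, 4.06, 3.75 and 4.14 log2 CPM in WT vehicle and at 7.94, 8.20, 7.95 and 8.42 under LPS+IFNγ. In Nlrx1-/- astrocytes it moved from 3.74, 3.78, 3.93 and 4.15 to 7.96, 8.32, 7.91 and 8.29. The fitted log2 responses were 4.15 ± 0.089 and 4.21 ± 0.089 in WT and Nlrx1-/- cultures, or 17.8-fold and 18.4-fold (edgeR adjusted p = 8.89e-11 and 7.9e-11).

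The pair of head-to-head genes moved by nearly the same amount in each culture. Over the 8 litters, the Parp9 response minus the Dtx3l response ranged from -0.29 to 0.10 on the log2 CPM scale, with a mean of -0.10 ± 0.13 (SD). Per length, Parp9 was at 1.55 ± 0.232 times the TPM of Dtx3l in WT vehicle and 1.37 ± 0.107 times under LPS+IFNγ, and at 1.53 ± 0.0691 and 1.44 ± 0.0768 times in Nlrx1-/- cultures. These ratios overlapped between treatments in both genotypes. In WT the CPM of Parp9 from summed transcripts, relative to its deposited CPM, was lower under LPS+IFNγ than in vehicle. The bearing of this on the TPM ratios was not tested.

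Parp14, a large macrodomain-containing mono-ADP-ribosyltransferase, had the largest mean response of the members. It was at 2.92, 3.16, 3.05 and 3.13 log2 CPM in WT vehicle libraries and at 9.30, 9.59, 9.24 and 9.87 under LPS+IFNγ. In Nlrx1-/- astrocytes it went from 3.02, 2.84, 3.35 and 3.50 to 9.36, 9.73, 9.24 and 9.74. The fitted log2 responses of 6.44 ± 0.16 and 6.33 ± 0.15 correspond to 86.7-fold and 80.2-fold rises (edgeR adjusted p = 2.18e-10 and 2.63e-10) and ranked 141st and 153rd of 16066 genes. Although a neighbour of Dtx3l, Parp14 rose more than Dtx3l in each of the 8 litters, by 1.91 to 2.47 on the log2 scale.

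Over the 8 within-litter responses, the genes nearest to each of these members were found by the root mean square difference in log2 CPM among 12747 named genes with a mean of at least 1 CPM. For Parp9 the nearest were Tap2 (0.15), Dtx3l (0.16) and B2m (0.22), and for Dtx3l they were Tap2 (0.11), B2m (0.12) and Parp9 (0.16). Tap2 encodes a peptide transporter subunit and B2m the light chain of MHC class I molecules. For Parp14 the nearest were Bst2 (0.21), Oasl2 (0.28) and Tnfaip2 (0.28), with Parp9 and Dtx3l at 2.31 and 2.21.

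Parp10, a mono-ADP-ribosyltransferase (chr15:76115374-76127648, minus strand), was the member with the lowest level in vehicle and nearly matched Parp14 in its rise. Its WT libraries were at 0.82, 0.79, 0.69 and 0.66 log2 CPM in vehicle and at 6.83, 6.93, 6.88 and 7.07 under LPS+IFNγ. Its Nlrx1-/- libraries were at 0.79, 0.80, 1.42 and 0.97 and at 6.86, 7.32, 6.74 and 7.35. Its responses were fitted at 6.23 ± 0.17 in WT and 6.09 ± 0.17 in Nlrx1-/- astrocytes (edgeR adjusted p = 6.83e-10 and 6.95e-10). The lowest library held 48 Parp10 read pairs and the highest 5662, so the vehicle values carry the larger counting error. Nlrx1-/- litter 3, with the highest vehicle level, had the smallest response (5.32 against 6.08 to 6.53 in the other 3 litters).

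Parp12, a zinc finger PARP of the antiviral group (chr6:39063342-39095573, minus strand), was at 4.69, 4.91, 4.73 and 5.01 log2 CPM in WT vehicle and at 7.80, 8.05, 7.81 and 8.07 under LPS+IFNγ. In Nlrx1-/- astrocytes it was at 4.73, 4.53, 4.96 and 4.87 in vehicle and at 7.87, 8.66, 7.77 and 8.68 under LPS+IFNγ. The WT litters responded almost identically, by 3.06 to 3.14 on the log2 scale, whereas the Nlrx1-/- litters ranged from 2.81 to 4.13. In the fit its log2 responses were 3.09 ± 0.18 and 3.46 ± 0.18 (edgeR adjusted p = 2.97e-07 and 1.33e-07). The fit uses a common estimate of the spread, so these SE do not show the wider range of the Nlrx1-/- litters.

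Parp3, a DNA-dependent PARP with a role in double-strand break repair (chr9:106347521-106354159, minus strand), did not follow the reference pair and rose with the interferon-linked members. It was at 4.82, 5.21, 5.16 and 5.56 log2 CPM in WT vehicle and at 8.01, 8.10, 7.99 and 8.16 under LPS+IFNγ. The corresponding Nlrx1-/- values were 4.80, 4.14, 5.23 and 4.56, and then 7.78, 8.06, 8.07 and 8.15. Vehicle levels varied more between litters than stimulated levels in both genotypes (SD 0.30 and 0.46 against 0.081 and 0.16). The fitted log2 responses were 2.86 ± 0.16 and 3.30 ± 0.17, or 7.28-fold and 9.86-fold (edgeR adjusted p = 2.72e-07 and 9.89e-08).

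Parp8, one of the less studied members of the family (chr13:116987380-117162073, minus strand), had the smallest rise of the 8. Its WT libraries were at 4.93, 4.75, 4.73 and 4.65 log2 CPM in vehicle and at 5.56, 5.45, 5.34 and 5.45 under LPS+IFNγ, and its Nlrx1-/- libraries at 4.78, 4.74, 4.85 and 5.07 and at 5.71, 5.90, 5.64 and 5.77. The treatments did not overlap in either genotype. Its fitted log2 responses were 0.61 ± 0.081 and 0.85 ± 0.081, or 1.52-fold and 1.8-fold (edgeR adjusted p = 0.000157 and 1.19e-05).

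Parp11 (chr6:127423483-127491198, plus strand), a mono-ADP-ribosyltransferase linked to the nuclear envelope and to interferon receptor turnover, rose by an intermediate amount. It was at 4.89, 4.92, 4.82 and 4.84 log2 CPM in WT vehicle and at 6.86, 6.98, 6.76 and 7.10 under LPS+IFNγ. Its Nlrx1-/- libraries were at 4.81, 4.93, 4.86 and 4.52, and at 6.94, 7.61, 6.78 and 7.68. The fitted log2 responses were 2.05 ± 0.16 and 2.46 ± 0.17 (edgeR adjusted p = 3.94e-06 and 1.03e-06).

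The rise of Parp11 went along with a change in the transcripts to which its reads were assigned. Salmon listed 16 annotated Parp11 transcripts, and those described here were picked for their levels, so the values are a description with no test. The first pair was picked for having reads in most vehicle libraries and none under LPS+IFNγ. The second pair had the largest mean shares under LPS+IFNγ. NM_181402.4 and XM_006505231.4, of 3842 bases each, together held 60.6%, 61.3%, 61.9% and 43.2% of the gene's TPM in WT vehicle litters 1 to 4 and 66.2%, 54.7%, 60.6% and 49.6% in Nlrx1-/- vehicle litters. Both were listed at 0 in all 8 LPS+IFNγ libraries. XM_006505232.5 and XM_006505233.5, of 3778 and 3776 bases, held 0 to 0.756% in WT vehicle and 0 to 3.88% in Nlrx1-/- vehicle. Under LPS+IFNγ they held 79.2%, 74.8%, 77.9% and 76.8% in WT and 75.5%, 75.7%, 80.7% and 84.5% in Nlrx1-/- cultures. The change was the same in direction in each of the 8 litters, which the choice fixed for the first pair and favoured for the second. XM_006505234.4, outside both pairs, held 9.99% and 18.1% in WT and Nlrx1-/- vehicle and 11% and 8.37% under LPS+IFNγ. Salmon shares reads between transcripts that have most of their sequence in common, and these files carry no error for that step.

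**Figure D2:**
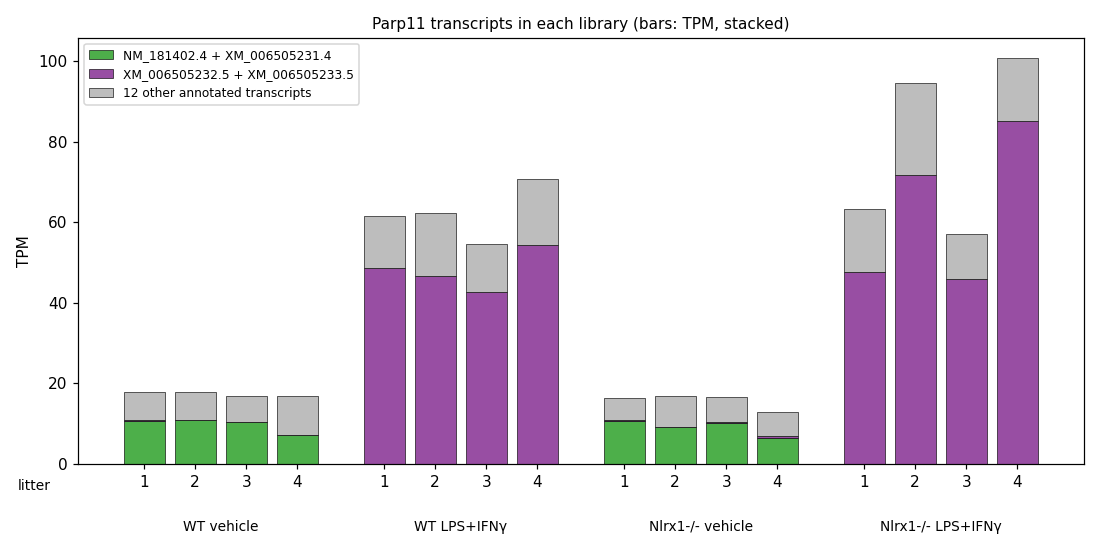
TPM of Parp11 transcripts in each of the 16 libraries, stacked by transcript pair, with the 12 other annotated transcripts in grey. The pair NM_181402.4 and XM_006505231.4, picked for its absence under LPS+IFNγ, is seen only in vehicle. The pair XM_006505232.5 and XM_006505233.5, picked for its share under LPS+IFNγ, makes up 74.8% to 84.5% of the stacks there.

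Parp11 has 2 start sites in the RefSeq promoter table, 6787 bases apart, at 127423803 and 127430590 on chromosome 6. The table is built on GRCm38.p6, and each window was found once, unchanged, on the plus strand of chromosome 6 in GRCm39. Other chromosomes were not searched for these windows. The files do not say which of the Salmon transcripts begins at which start. Of 37 GENCODE transcripts of the gene, 2 begin within 100 bases of the first start and 28 within 100 bases of the second. The promoter table held 7 of the 10 members and had no entry for Parp9, Parp10 and Parp14. Windows from 250 bases before to 50 after each start were searched on both strands for the interferon-stimulated response element, taken as GAAA, any pair of bases and GAAA, and for the IFNγ-activated site, written TTCNNNGAA. Among all 32851 windows of the table, 3.44% held the first and 8.3% the second. Of the members' windows, that of the first Parp11 start was the one with a match, and it held both, the response element on the minus strand from position -44 and the activated site from position -37, overlapping each other. The start listed for Dtx3l lies 124 bases inside the annotated 5′ end of the gene, with no GENCODE start within 100 bases, so its window may miss the region before the start that is used, and the starts of the other members were not compared with GENCODE. The 30 bases around them and the 30 bases at the same distance from the second start, which hold neither, are shown for comparison, with the matched letters in capitals.
Parp11 first start, chr6:127423752-127423781, plus strand: cttttagTTTCGATTTCTTGGAAcccgtgg
Parp11 second start, chr6:127430539-127430568, plus strand: agcgagtttgcggtgggcgggaccgccact
Such a match describes letters and is no measurement of binding.

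The transcripts of the other members are described in the same way. Parp1, Parp12 and Dtx3l have 1 annotated transcript each in the files. Parp14 reads were assigned mainly to NM_001039530.3, at 89.6% and 97% of its TPM in WT and Nlrx1-/- vehicle and 95.6% and 95.2% under LPS+IFNγ. For Parp3, XM_006511720.2 held 20.3% (7.01% to 26.3%) in WT vehicle and 34.8% (28.7% to 38.9%) under LPS+IFNγ, and 14.7% (8.32% to 25.8%) and 32.3% (27.8% to 39.6%) in Nlrx1-/- cultures. For Parp9, XM_030249337.2 held 58.1% in WT vehicle and 61.9% under LPS+IFNγ, and 28.7% (0 to 45.5%) and 60.3% in Nlrx1-/- cultures, where NM_030253.3 led in vehicle at 42.8% and held 13.4% under LPS+IFNγ. XM_030249336.2 went from 0.785% (0 to 3.14%) to 16.8% (12.1% to 20.2%) in WT and was at 18.8% (0 to 46.4%) and 20.1% in Nlrx1-/-. For Parp10, NM_001163576.1 was at 25% in WT vehicle, with litters from 0 to 100%, and at 30.3% (22.3% to 44.1%) under LPS+IFNγ, and it was listed at 0 in Nlrx1-/- vehicle and at 26.6% (19.9% to 30.7%) under LPS+IFNγ. The vehicle shares of Parp10 rest on few reads.

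Set against the mean of Parp1 and Parp2 within each library, the other members rose by 0.60 to 6.35 on the log2 scale in WT and by 0.91 to 6.36 in Nlrx1-/- astrocytes. All 8 were higher than this reference in WT, where 17.9% of 16707 genes were, and all 8 in Nlrx1-/-, where 26% were (limma with the litter terms, adjusted p below 0.05). Parp8 was the member nearest to the reference. Its difference was 0.60 ± 0.092 (SE) in WT (limma adjusted p = 0.000104), with single litters from 0.48 to 0.70, and 0.91 ± 0.092 in Nlrx1-/- (limma adjusted p = 1.35e-06), with litters from 0.72 to 1.28. At the other end, Parp14 stood 6.35 ± 0.13 and 6.36 ± 0.13 above it (limma adjusted p = 8.1e-15 and 8.75e-15).

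**Figure D3:**
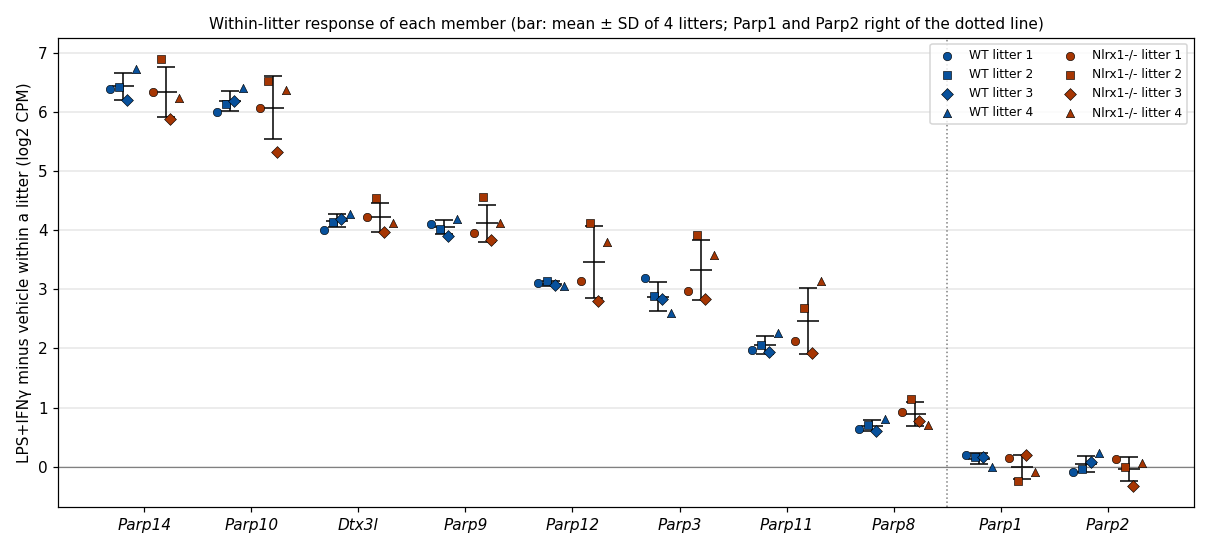
LPS+IFNγ minus vehicle within each litter, in log2 CPM, for the 4 WT and the 4 Nlrx1-/- litters, with mean ± SD. Parp14 and Parp10 lie above 5, Dtx3l and Parp9 near 4, Parp12, Parp3 and Parp11 between 1.92 and 4.13, Parp8 between 0.61 and 1.15, and Parp1 and Parp2 around 0.

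The members fell into the same order of mean response in both genotypes: Parp14, Parp10, Dtx3l, Parp9, Parp12, Parp3, Parp11, Parp8, Parp1 and Parp2. In WT astrocytes the litters of neighbours overlapped for Parp14 and Parp10, for Dtx3l and Parp9, for Parp12 and Parp3, and for Parp1 and Parp2, and for no other neighbours. In Nlrx1-/- astrocytes the steps from Parp9 to Parp12 and from Parp3 to Parp11 also overlapped, as the litters were more spread.

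Levels between genes were compared per length, in TPM. In WT vehicle cultures Parp1 was the most abundant member at 79.7 ± 8.91 TPM (SD, n = 4), followed by Parp3 at 29.4 ± 6.03 and Parp2 at 29.2 ± 2.39, which overlapped. Parp14 was at 2.43 ± 0.152 and Parp10 at 1.02 ± 0.0613, below all others. Under LPS+IFNγ the order changed, with Parp14 going from place 9 to 1 and Parp1 from 1 to 6, while Parp3 stayed at 2. Parp14 was then at 185 ± 38.5 TPM and Parp3 at 183 ± 10.3, which overlapped, Parp12 at 144 ± 13.9 and Parp9 at 141 ± 10.8 overlapped next, and Dtx3l at 104 ± 16.7 overlapped with Parp1 at 75.4 ± 12.5. Parp10 at 65.9 ± 4.95 and Parp11 at 62.3 ± 6.61 followed, Parp10 overlapping with both Parp1 and Parp11, and Parp2 at 26.3 ± 2 and Parp8 at 12.7 ± 1.42 were lowest.

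Summed over the 10 members, the level rose from 205 ± 4.79 to 999 ± 90.3 TPM in WT and from 205 ± 6.22 to 1060 ± 150 TPM in Nlrx1-/- astrocytes. The share held by Parp1 was 38.7% ± 3.55 in WT vehicle and 7.65% ± 1.74 under LPS+IFNγ, and 45.6% ± 4.98 and 7.94% ± 1.74 in Nlrx1-/- cultures. The share of the chromosome 16 trio of Parp9, Dtx3l and Parp14 went from 9.5% ± 0.737 to 42.8% ± 2.68 in WT and from 8.82% ± 1.27 to 40.5% ± 1.07 in Nlrx1-/- cultures. These shares did not overlap between treatments.

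**Figure D4:**
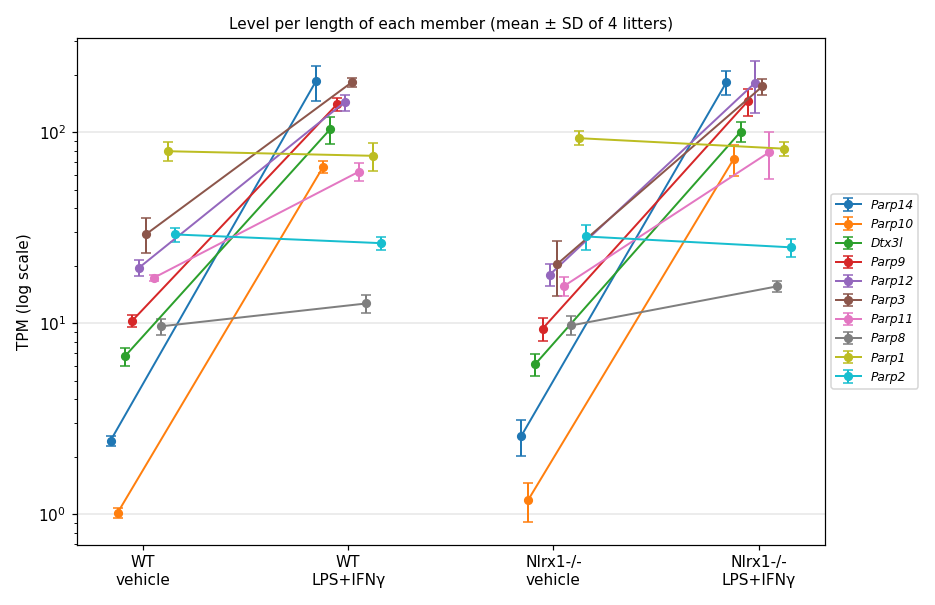
TPM on a log scale for each member, mean ± SD of 4 litters, with lines joining vehicle and LPS+IFNγ within a genotype. Parp1 is the highest point in vehicle and is passed by Parp14, Parp3, Parp12, Parp9 and Dtx3l under LPS+IFNγ.

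Whether loss of Nlrx1 changed these responses was asked with the interaction of genotype and treatment. None of the 10 members passed, as was so for 0% of the 16066 genes tested with edgeR (2469, or 15.4%, had an unadjusted p under 0.05, of which none was a member, and DESeq2 called 296 genes, none of them a member). The responses of the 2 genotypes overlapped for all 10 members, while they did not overlap for 8.31% of all genes. The largest fitted differences, Nlrx1-/- minus WT, were 0.44 ± 0.22 for Parp3, 0.41 ± 0.22 for Parp11, 0.37 ± 0.23 for Parp12 and 0.24 ± 0.11 for Parp8 (edgeR adjusted p = 0.366, 0.416, 0.477 and 0.337). Single Nlrx1-/- litters moved these values. Without litter 2 the difference was 0.24 for Parp3, 0.15 for Parp12 and 0.14 for Parp8, without litter 4 it was 0.18 for Parp11, and without litter 3 it was 0.59 for Parp3, 0.58 for Parp11 and 0.59 for Parp12, and none of the members passed in any of these fits. For Dtx3l, Parp9, Parp10 and Parp14 they lay between -0.14 and 0.14, with SE of 0.11 to 0.24. In a simulation of this comparison with 15805 genes, 62.5% of differences of 1 on the log2 scale were recovered, and smaller differences were not simulated. Its litter effects were drawn for each gene on its own and were equal in both treatments. A shift in response shared by many genes of a litter was thus not simulated, and the recovery is over genes of all levels.

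The Nlrx1-/- litters differed among themselves more than the WT litters did. Litter 2 exceeded the highest WT response for all 8 members other than Parp1 and Parp2, and litter 4 for 3 of the 8, whereas litter 3 was below the lowest WT response for 6 of the 8 and litter 1 was within the WT range for 7. Over all genes, litter 2 exceeded the WT range for 28.4% and fell below it for 30.6%, litter 4 did so for 30.5% and 32%, litter 1 for 22.7% and 24.3%, and litter 3 for 17.4% and 24.2%. The median response of the 8 members was 3.55, 4.34, 3.34 and 3.97 in Nlrx1-/- litters 1 to 4, and 3.60, 3.59, 3.49 and 3.63 in WT litters. Parp11 and Parp12 show this most plainly under LPS+IFNγ, where litters 2 and 4 were at 7.61 and 7.68 log2 CPM for Parp11 and at 8.66 and 8.68 for Parp12, and litters 1 and 3 were at 6.94 and 6.78 and at 7.87 and 7.77. WT litters 2 and 4 were also above WT litters 1 and 3 there, with a smaller gap. They were at 6.98 and 7.10 against 6.86 and 6.76 for Parp11, and at 8.05 and 8.07 against 7.80 and 7.81 for Parp12. Dtx3l, Parp9, Parp10 and Parp14 had this order of litters in both genotypes, while Parp3 and Parp8 did not. Its cause was not tested.

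**Figure D5:**
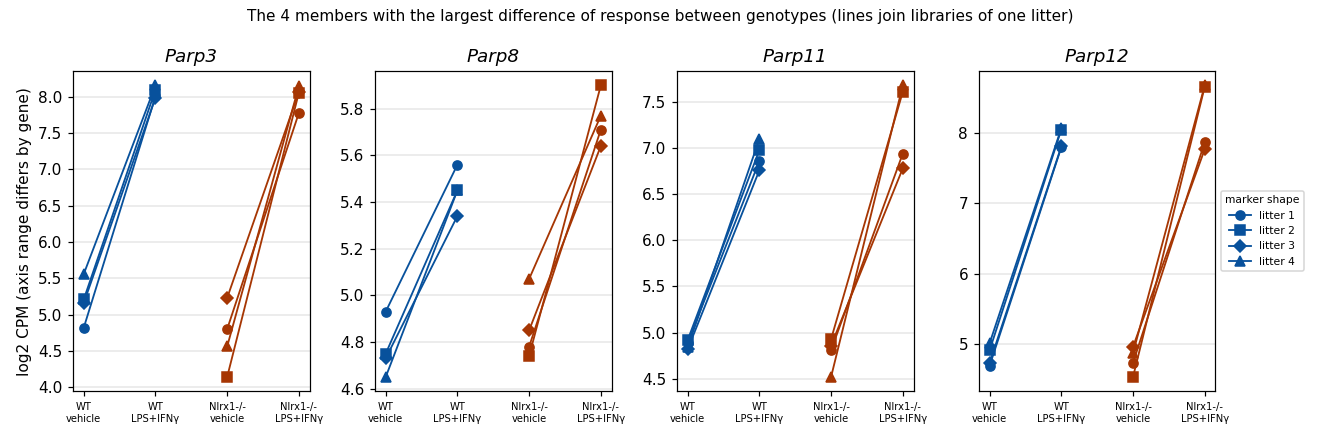
Log2 CPM in vehicle and LPS+IFNγ for the members with the largest differences of response between genotypes, with a line for each litter. WT lines run close together for Parp11 and Parp12, whereas WT vehicle values of Parp3 spread from 4.82 to 5.56. Litters 2 and 4 end highest for Parp11 and Parp12 in both genotypes, with a wider gap among the Nlrx1-/- lines. Parp8 ends above the WT litters in all 4 Nlrx1-/- litters.

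In vehicle, none of the members differed between genotypes, and 0% of all genes passed with edgeR (3152, or 19.6%, had an unadjusted p under 0.05, as did 2 of the 10 members, Parp1 and Parp3, and limma called 1 gene and DESeq2 735). Nlrx1 itself did not pass in vehicle either (-1.70 ± 0.24, edgeR adjusted p = 0.0538). No member had genotypes without overlap in vehicle, which 9.45% of all genes had. Parp3 was lower in Nlrx1-/- cultures by a fitted log2 difference of -0.48 ± 0.18 (edgeR adjusted p = 0.177), with means of 4.68 and 5.19 log2 CPM. Parp1 was at 0.28 ± 0.10 above WT (edgeR adjusted p = 0.17), with means of 7.40 and 7.11. When single litters were left out, the Parp3 difference lay between -0.33, without WT litter 4 or without Nlrx1-/- litter 2 (edgeR adjusted p = 0.464 and 0.511), and -0.68, without Nlrx1-/- litter 3. It passed in the last of these alone (edgeR adjusted p = 0.0289), where 8.04% of all genes passed.

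Under LPS+IFNγ, 0 of the 10 members differed between genotypes with edgeR, where 5.03% of all genes did, while 2 members had an unadjusted p under 0.05, as did 28.4% of all genes. Limma and DESeq2 each called 1 member, where they called 8.8% of all genes and 16.5% of those with an adjusted p. That one was Parp8, whose 4 Nlrx1-/- libraries lay at 5.64 to 5.90 log2 CPM, above the WT range of 5.34 to 5.56. It was the only member without overlap, a pattern seen in 13.3% of all genes. The fitted difference was 0.31 ± 0.10 (edgeR adjusted p = 0.0624), and it was 0.30 with limma (adjusted p = 0.0456) and 0.32 with DESeq2 (adjusted p = 0.0256). Parp11 differed by 0.36 ± 0.16 (edgeR adjusted p = 0.162) and Parp12 by 0.35 ± 0.18 (edgeR adjusted p = 0.202). Both of these passed, at 0.49 each, together with Parp8, at 0.33, when Nlrx1-/- litter 3 was left out (edgeR adjusted p = 0.0312, 0.0447 and 0.0458), where 20.5% of all genes passed. Parp8 also passed, at 0.37, without WT litter 1 (edgeR adjusted p = 0.037), where 8.56% of all genes did. In the other direction, the Parp11 difference was 0.24 without Nlrx1-/- litter 2 and 0.21 without litter 4, and that of Parp12 was 0.21 without either (edgeR adjusted p between 0.433 and 0.524). For Dtx3l, Parp9, Parp14 and Parp3 the differences lay between -0.062 and 0.063, with SE of 0.12 to 0.18.

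Of the 7 other PARP genes, 3 rose in both genotypes, namely Zc3hav1, which encodes the zinc finger antiviral protein PARP13, by 2.51 ± 0.10 and 2.61 ± 0.10 in WT and Nlrx1-/- astrocytes (edgeR adjusted p = 1.32e-08 and 9.95e-09), Parp4 by 0.71 and 0.78, and Tiparp by 0.58 and 0.61. Tnks, a tankyrase, fell in WT by 0.18 on the log2 scale (edgeR adjusted p = 0.0185) and was at -0.064 in Nlrx1-/- (edgeR adjusted p = 0.35). Zc3hav1 thus rose by more than Parp11, and Parp4 in WT by more than Parp8, though these differences were not tested. The median response of the 7 was -0.064 in WT and 0.16 in Nlrx1-/-. Over all genes, 23.7% rose and 20.2% fell in WT, and 25.3% rose and 24.2% fell in Nlrx1-/- astrocytes.

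Of the 4 other deltex ligases, Dtx4 rose by 0.84 and 0.72, Dtx3 fell in both genotypes (-0.32 and -0.22), and Dtx1 fell in Nlrx1-/- astrocytes (-0.28, edgeR adjusted p = 0.00853) and was at -1.4e-05 in WT. Dtx2 passed in neither genotype. The shares over all genes were 23.7% and 25.3% for a rise, and 20.2% and 24.2% for a fall, in WT and Nlrx1-/- astrocytes.

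Of 12 tested among 14 listed genes for enzymes that remove ADP-ribose, their cofactor or proteins that read it, 5 rose and 0 fell in WT, where 23.7% of all genes rose and 20.2% fell, and 2 rose and 1 fell in Nlrx1-/- astrocytes, where 25.3% rose and 24.2% fell. Their median responses were 0.052 and 0.11. Nudt9, an ADP-ribose pyrophosphatase, rose by 0.36 and 0.25, and Adprh, an ADP-ribosylarginine hydrolase, by 0.32 and 0.18. Hpf1, which encodes the factor that directs Parp1 and Parp2 to serine, rose in WT by 0.31 (edgeR adjusted p = 0.0355) and was at 0.23 in Nlrx1-/- (edgeR adjusted p = 0.087). Oard1 fell in Nlrx1-/- cultures (-0.35, edgeR adjusted p = 0.0126) and was at -0.014 in WT.

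Among 15 tested of 17 listed genes of NAD supply and use, 2 rose and 7 fell in WT, and 4 rose and 7 fell in Nlrx1-/- astrocytes, beside the same shares over all genes (20.2% and 24.2% lower). Nampt, the rate-limiting enzyme of NAD salvage, rose by 1.89 ± 0.12 and 2.35 ± 0.12 (edgeR adjusted p = 7.9e-07 and 1.59e-07), and Nadk, an NAD kinase, by 0.36 and 0.31. Nmnat1 rose in Nlrx1-/- (0.41, edgeR adjusted p = 0.0237) and was at 0.26 in WT (edgeR adjusted p = 0.134). Cd38, an NAD-consuming ectoenzyme, fell in WT (-2.07 ± 0.50, edgeR adjusted p = 0.00695) and was at -0.89 ± 0.54 in Nlrx1-/- (edgeR adjusted p = 0.195), and Nmrk1 and Sirt2 fell in both genotypes.

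Of 19 genes of the interferon signalling path that acts upstream of such genes, 15 rose and 1 fell in WT, where 23.7% of all genes rose and 20.2% fell. In Nlrx1-/- astrocytes 16 rose and 1 fell, where 25.3% of all genes rose and 24.2% fell. The median responses of the 19 were 1.11 and 1.18. The largest rises were those of Irf8 (7.92 and 7.64), Socs1 (6.22 and 6.27) and Irf1 (5.80 and 5.59), and Ifngr2, a chain of the IFNγ receptor, fell (-0.19 and -0.18, edgeR adjusted p = 0.0377 and 0.0463).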

How the data were processed

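Per the labels and the study's methods, poly-A, non-stranded paired-end libraries were quantified by the authors with Salmon 1.7.0 against GRCm39 transcripts, and the deposited estimated counts, effective lengths and TPM are per transcript. The deposited log2 CPM values were made by the authors from length-scaled gene counts after a low-count filter and TMM scaling, with limma 3.58.1. A second table of CPM values was not used.

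Of 129698 transcripts, 106440 were paired with gene symbols (70626 with the same version), holding 96.7% to 97.3% of the reads. Estimated counts were added up by gene symbol and rounded, and 16066 genes that passed filterByExpr (minimum count 10) entered a quasi-likelihood fit in edgeR 4.0.16 with TMM scaling and offsets for transcript length, under R 4.3.3. Treatment effects and their interaction with genotype were fitted with litter nested in genotype. For the genotype contrasts a 4-group model was used, since no litter holds both genotypes. The response relative to Parp1 and Parp2 was tested with limma on log2 CPM. The threshold was a Benjamini-Hochberg adjusted p of 0.05 over all genes. Simulated data with 200 genes changed by 1 on the log2 scale were recovered at 69% for the WT response. Levels between genes were compared in TPM. Errors of limma values are standard errors of the fit. Those of edgeR values, printed as SE, are the log2 difference divided by the square root of its F statistic. They approximate a standard error and are least sure for the largest responses. Each fit used a common estimate of the spread for all groups, so these errors do not show the spread within a single genotype. The vehicle and LPS+IFNγ cultures of a litter are paired by the study's design, and their deviations from the group means correlated at 0.07 to 0.35. DESeq2 1.42.0, limma, other scaling, no length offsets, no filter, other litter terms, Parp1 or Parp2 alone as reference, and leaving out each litter were tried as alternatives.

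The members, the gene lists and the rule for naming genes (of each list at most 3 up and 3 down, by the WT response among genes called in either genotype) were chosen with earlier results of these data known. Each library is 1 culture of 1 litter. P-values for the responses and their interaction measure the spread of the within-litter response, and those between genotypes measure the spread between litters. Counts cover counting error only through these spreads.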

Additional observations from a re-analysis of the deposited data

Results flagged for a closer look

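In the 60 sets of 4 litters tested for a sample far from the others (10 members, 4 groups of levels and 2 of responses), 2 stood out by Dixon's test, where chance flags about 1 in 20. The Parp1 response of WT litter 4 was -0.0045 on the log2 CPM scale, against 0.17 to 0.19 in the other 3 WT litters. Parp2 in Nlrx1-/- litter 1 under LPS+IFNγ was at 4.81 log2 CPM, against 4.56 to 4.60 in the other 3 litters.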

How the results depend on the processing

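The 8 members other than Parp1 and Parp2 were called higher in WT and in Nlrx1-/- astrocytes under every alternative, 8 of 8 each time, also relative to Parp1 and Parp2, and the count for the interaction stayed at 0 of 10. With no replicate block for litter the WT and Nlrx1-/- counts were 8 and 8. The number of members differing between genotypes was 0 in vehicle and 0 to 1 when single litters were left out (1 without Nlrx1-/- litter 3). Under LPS+IFNγ it was 1 with DESeq2, 1 with limma and 0 to 3 when single litters were left out. WT and Nlrx1-/- litters carry the same numbers, and the study states that pups of both genotypes shared a day of birth. Whether litters of one number were prepared together is not given. Their deviations correlated at -0.09 to 0.18, which does not settle it. With that number as a replicate block 0 members were called in vehicle and 0 under LPS+IFNγ, although the calls over all genes under LPS+IFNγ went from 808 to 2206. The 808 calls rested on single litters in both directions, with 1397, 1, 2 and 1 without WT litters 1 to 4 and 220, 13, 3333 and 4 without Nlrx1-/- litters 1 to 4. In vehicle, leaving out Nlrx1-/- litter 3 gave 1310 calls and WT litter 1 gave 153, against 0 to 3 without the others. Single values near 0 changed sign. Parp9 in vehicle was 0.01 with limma, and Parp14 under LPS+IFNγ was 0.0031 with DESeq2 and with its size factors in edgeR, 0.016 with limma and 0.003 with the replicate block. When single litters were left out, the Nlrx1-/- response ranged from -0.091 to 0.063 for Parp1 and from -0.071 to 0.091 for Parp2. The interaction then ranged from -0.14 to 0.026 for Parp2, from -0.29 to 0.12 for Parp10, from -0.29 to 0.027 for Parp14 and from -0.054 to 0.12 for Dtx3l. The genotype difference in vehicle ranged from -0.076 to 0.081 for Parp2, from -0.0085 to 0.13 for Parp8 and from -0.13 to 0.0034 for Parp12. Under LPS+IFNγ it ranged from -0.10 to 0.013 for Parp3, from -0.038 to 0.15 for Parp9, from -0.09 to 0.15 for Parp14 and from -0.10 to 0.094 for Dtx3l. The cause of these shifts was not tested.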
